A study of Homo sapiens with 12 samples.

Results

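The enzymes that make and balance the deoxynucleotides for DNA replication were described in HL-60 cells after 3 h of drug treatment. The 9 genes were taken by name, RRM1, RRM2, RRM2B, TYMS, DTYMK, TK1, DCK, DUT and CAD, out of 58233 genes in the expression table. The rule uses only the gene name, but the list itself was chosen with earlier results of these data known. Counts of members beside shares of all genes are therefore descriptions only. HL-60 is a long-established human line of acute myeloid leukaemia, wild type by its label and grown in RPMI with 10% FCS. The study counts it among lines outside acute promyelocytic leukaemia (non-APL). There were 4 groups of 3 libraries of polyA RNA: no treatment, all-trans retinoic acid (ATRA) at 100 nM, palbociclib at 500 nM, and both drugs at these doses (the combination). ATRA binds the retinoic acid receptors and drives myeloid cells towards granulocytes, and palbociclib inhibits the cyclin-dependent kinases of G1. No vehicle is named for the untreated cells. HL-60 is 1 line, the labels number the replicates 1 to 3 without saying whether these were separate cultures, and the methods speak of independent experiments in general but of the sequenced libraries only as barcoded triplicates. The p-values therefore measure the spread between these libraries, which may be technical.

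The values are read counts scaled to gene length and library size (RPKM), rounded to whole numbers by the authors, so a value of 5 stands for anything between 4.5 and 5.5. The rounded values of a library summed to between 358455 and 390247, and the table gives no read depth for a library. The cell type label was checked against 8 markers of myeloid precursors and 8 of lymphoid, epithelial, stromal, endothelial and liver cells. The myeloid markers summed to between 1575 and 2008 RPKM in a library, led by MPO at 1077 to 1579, with ELANE listed at only 0 to 1, and the other 8 markers were listed at 0 in all 12 libraries. Of 7 myeloid markers tested, 0, 1 and 2 were higher than in untreated cells with palbociclib, ATRA and the combination at an adjusted p under 0.001. Beside these stood 0.0128%, 2.77% and 3.76% of all tested genes, and no marker was lower at that threshold. The markers went both ways, since 3 of the 7 had log2 fold changes below 0 with ATRA and 3 with the combination. MPO was among them, at -0.25 and -0.21.

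Deoxynucleotides are made by reducing ribonucleotides, a step carried out by ribonucleotide reductase, a complex of the catalytic subunit RRM1 with either RRM2, which is made in S phase, or RRM2B, the alternative subunit used outside S phase and after DNA damage. Thymidine nucleotides have a branch of their own, in which TYMS methylates dUMP to dTMP, DUT supplies dUMP by hydrolysing dUTP and keeps uracil out of DNA, and DTYMK phosphorylates dTMP, while TK1 and DCK recover deoxynucleosides by phosphorylation. CAD carries the opening steps of pyrimidine synthesis on a single polypeptide. RRM1, RRM2, TYMS, TK1 and DUT are well known as genes of the E2F programme, which is switched on when cyclin-dependent kinases inactivate the retinoblastoma protein.

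Because that programme acts at promoters, the 250 bases before the annotated starts of the genes were searched for 3 motifs on both strands in the RefSeq sequence of GRCh38.p14. For E2F the 4 words TTTCCCGC, TTTCGCGC, TTTGCCGC and TTTGGCGC were used, with CCAAT for NF-Y and CACGTG for the E-box. RefSeq starts were found for 8 members with 13 windows between them, RRM2B being the member without. The E2F words were present in 2 of the 13 windows, 1 each of TYMS and DUT, against 2.79% of 35116 windows of all genes. CCAAT was present in 6 of 13 windows, which belong to RRM1, RRM2, TK1, DTYMK and CAD, against 32.0%, and CACGTG in 1 of 13, of DCK, against 6.34%. A match is only a run of letters, and its absence says only that these letters were not in the window. The whole windows of RRM1 and TYMS are printed because these genes were lower after palbociclib with a CCAAT and an E2F word, respectively, close to the start, and that of CAD because it was lower with ATRA and not with palbociclib alone. Each runs 5′ to 3′ on the plus strand, with matches in capitals, at chr11:4094435-4094684 for RRM1, chr18:657403-657652 for TYMS and chr2:27217119-27217368 for CAD.
RRM1: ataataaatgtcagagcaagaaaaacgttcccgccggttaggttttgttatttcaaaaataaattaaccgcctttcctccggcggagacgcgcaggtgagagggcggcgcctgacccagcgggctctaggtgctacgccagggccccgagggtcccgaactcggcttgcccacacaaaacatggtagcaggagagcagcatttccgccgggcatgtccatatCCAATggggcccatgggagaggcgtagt
TYMS: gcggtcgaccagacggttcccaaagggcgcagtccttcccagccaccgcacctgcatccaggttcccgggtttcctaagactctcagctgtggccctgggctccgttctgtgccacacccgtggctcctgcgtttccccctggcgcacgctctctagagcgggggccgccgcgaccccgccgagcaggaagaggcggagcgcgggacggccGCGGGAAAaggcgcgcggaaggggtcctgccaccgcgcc
CAD: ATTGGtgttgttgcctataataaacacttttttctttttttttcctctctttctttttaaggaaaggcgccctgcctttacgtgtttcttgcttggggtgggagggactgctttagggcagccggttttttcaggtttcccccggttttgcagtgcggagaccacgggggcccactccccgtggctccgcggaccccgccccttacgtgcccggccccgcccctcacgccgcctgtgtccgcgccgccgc
The capitals in TYMS and CAD are the reverse complements of TTTCCCGC and CCAAT. For RRM2, TK1 and DUT only 30-base stretches around the matches are printed, because these windows lie partly or wholly in exons of other transcripts of the gene. Such exons took up 250, 181 and 94 of the 250 bases, respectively. The DTYMK window, with 2 CCAAT matches and 129 such bases, is not printed. The nearer match began 24 bases before the start, against 28 for the match of RRM1. With palbociclib the interval of DTYMK nevertheless spanned 0, at a log2 fold change of -0.12. Whether a match goes with a lower value was not tested. In 1 of its 2 windows RRM2 had 3 CCAAT matches on the plus strand, at chr2:10122604-10122633, chr2:10122634-10122663 and chr2:10122661-10122690, and its other window held 1 more. TK1, on the minus strand, had 2 in reverse orientation, at chr17:78187112-78187141 and chr17:78187081-78187110. DUT had both E2F words in 1 stretch, at chr15:48332152-48332181.
RRM2 match 1: ggcaaggcgcagCCAATgggaagggtcgga
RRM2 match 2: ggcatggcacagCCAATgggaagggccggg
RRM2 match 3: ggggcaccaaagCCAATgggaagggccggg
TK1 match 1: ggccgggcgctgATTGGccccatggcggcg
TK1 match 2: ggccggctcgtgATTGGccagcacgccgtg
DUT: ctgGCGGGAAAtttcggtTTTGGCGCgctc

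All 9 genes were expressed, and all 9 passed the minimum of 5 RPKM in at least 3 libraries that 7820 genes passed. RRM2B, the lowest, met it in 8 libraries and sat at the 19.2 percentile of untreated levels, whereas TYMS, RRM1 and RRM2 sat at the 92.8, 91.0 and 90.4 percentiles. The main pattern was that RRM1, RRM2 and TYMS had lower means in all 3 treated groups and the lowest wherever palbociclib was given. DUT and DCK met the same description by smaller margins. Their means with ATRA and palbociclib were 39.0 and 37.0 RPKM for DUT and 15.0 and 14.7 RPKM for DCK. CAD and RRM2B, in contrast, were lower wherever ATRA was given and not with palbociclib alone. In the main fit, without the replicate number as a block, no member passed the threshold used here, an adjusted p under 0.001, in any comparison. All differences below are therefore given as values with their intervals. Some other fits brought members past the threshold, as given below. In RNA from whole cultures, fewer cells in S phase and less RNA per cell cannot be told apart.

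**Figure D1:**
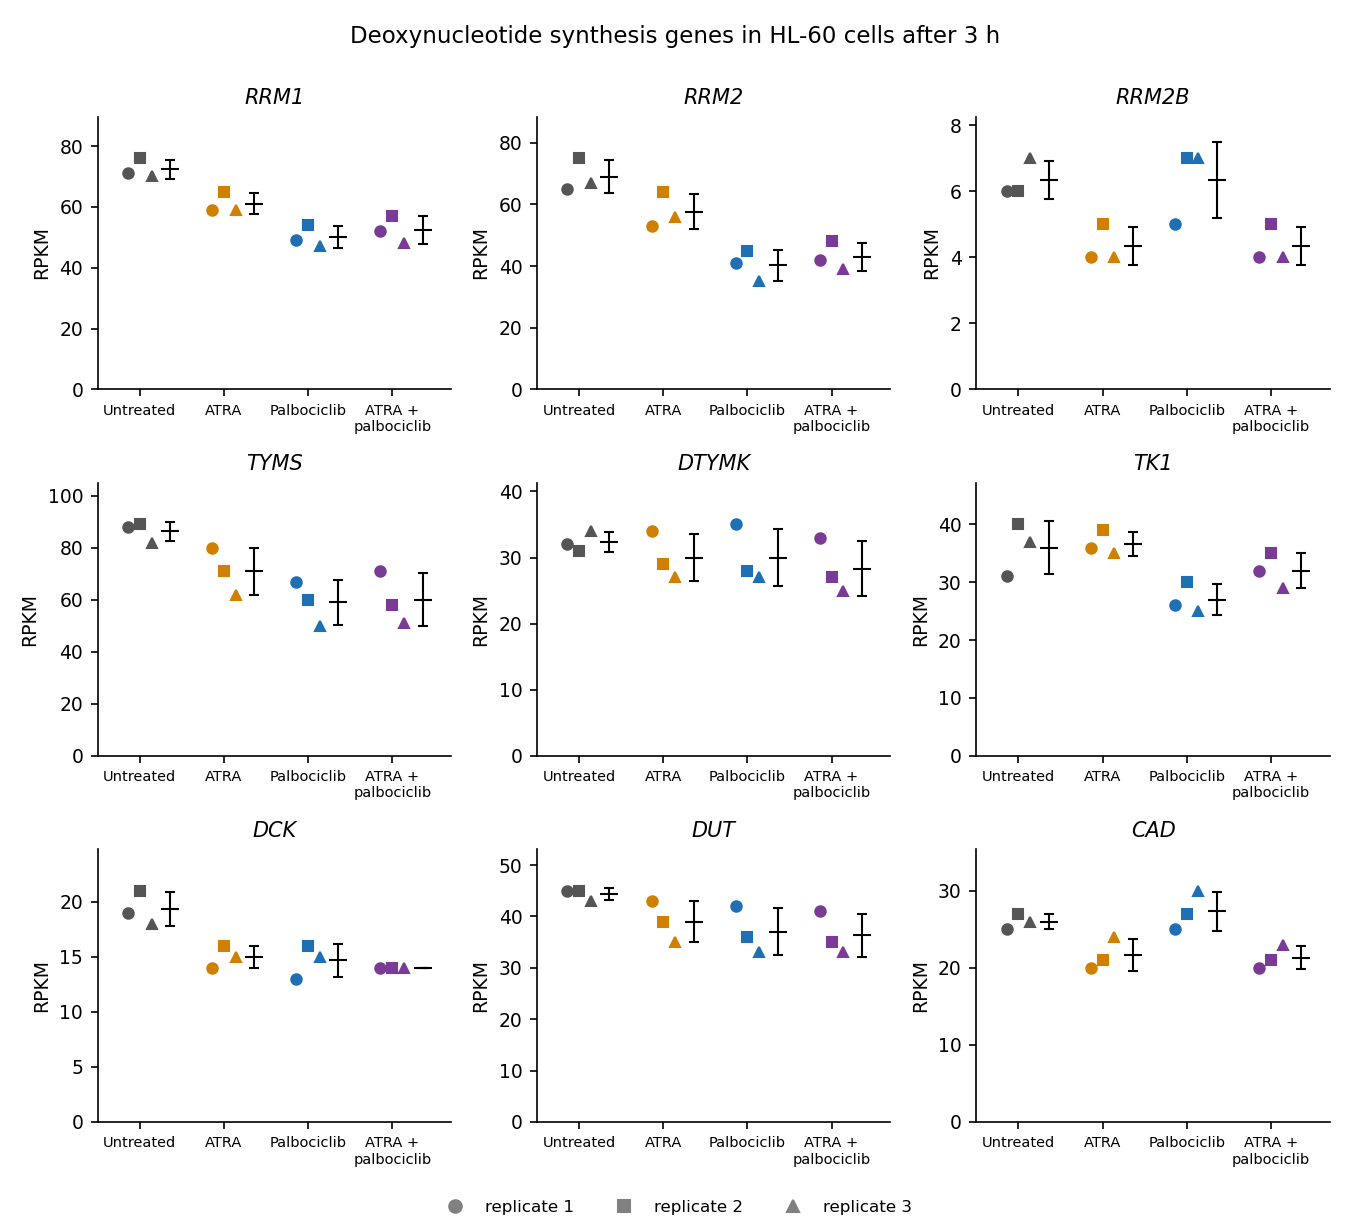
RPKM of the 9 genes in each of the 12 libraries, by treatment, with marker shape for the replicate number and a bar for the group mean; each vertical axis starts at 0. RRM2 ran from 65 to 75 in untreated cells and from 35 to 45 with palbociclib, while CAD ran from 25 to 27 and from 25 to 30 in the same groups and from 20 to 24 in the libraries given ATRA alone or in the combination.

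Of the subunits of ribonucleotide reductase, RRM1 and RRM2 had their lowest means in the groups given palbociclib, and RRM2B in those given ATRA. RRM2, the small subunit of S phase, was at 65, 75 and 67 RPKM in untreated libraries, 53, 64 and 56 with ATRA, 41, 45 and 35 with palbociclib, and 42, 48 and 39 with the combination. Every library given ATRA alone or palbociclib, with or without ATRA, was below every untreated library. Means were 69.0 ± 5.29, 57.7 ± 5.69, 40.3 ± 5.03 and 43.0 ± 4.58 RPKM (SD, n = 3), and the limma log2 fold change against untreated was -0.78 (SE 0.11, 95% interval -1.02 to -0.53, adjusted p = 0.00358) with palbociclib. With ATRA it was -0.26 (-0.51 to -0.01, adjusted p = 0.13). With the combination it was -0.68 (-0.93 to -0.44, adjusted p = 0.00103), just outside the threshold, and without palbociclib replicate 3 the adjusted p was 0.000916.

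RRM1, the catalytic subunit shared by both forms of the enzyme, had the same order. Its values were 71, 76 and 70 RPKM untreated, 59, 65 and 59 with ATRA, 49, 54 and 47 with palbociclib, and 52, 57 and 48 with the combination, so that again no treated library reached an untreated one. The log2 fold change against untreated was -0.53 (95% interval -0.70 to -0.36, adjusted p = 0.00369) with palbociclib, -0.25 (-0.42 to -0.08, adjusted p = 0.0457) with ATRA, and -0.47 (-0.64 to -0.30, adjusted p = 0.00109) with the combination. The difference with palbociclib was smaller for RRM1 than for RRM2, which was not tested, and the ratio of RRM2 to RRM1 in RPKM was 0.953 ± 0.0358 untreated and 0.944 ± 0.0434 with ATRA, against 0.805 ± 0.0522 with palbociclib and 0.821 ± 0.0186 with the combination (SD, n = 3). The ratios of the groups given palbociclib lay at or below 0.842 and those of the other groups at or above 0.898.

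RRM2B, the alternative small subunit, was lower in the groups given ATRA and not with palbociclib alone. It was at 6, 6 and 7 RPKM untreated and at 5, 7 and 7 with palbociclib, against 4, 5 and 4 both with ATRA and with the combination. Groups with and without ATRA overlapped only at the value 5, in palbociclib replicate 1 and the second library of each ATRA group. The log2 fold change against untreated was -0.54 (95% interval -0.88 to -0.20) with ATRA (adjusted p = 0.0297) and with the combination (adjusted p = 0.0213), and -0.01 (-0.35 to 0.33, adjusted p = 1) with palbociclib. These differences were 2 rounding steps wide, and rounding alone would allow anything from -0.82 to -0.27 for either. The ratio of RRM2 to RRM2B was 10.97 ± 1.47 untreated, 13.3 ± 0.606 with ATRA, 6.54 ± 1.60 with palbociclib and 9.95 ± 0.482 with the combination.

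In the thymidylate branch TYMS had the largest differences from untreated cells. TYMS was at 88, 89 and 82 RPKM untreated, 80, 71 and 62 with ATRA, 67, 60 and 50 with palbociclib, and 71, 58 and 51 with the combination. All treated libraries were below the untreated ones, and replicate 1 was the highest in each treated group. The log2 fold change against untreated was -0.56 (95% interval -0.86 to -0.25, adjusted p = 0.05) with palbociclib, -0.29 (-0.59 to 0.02, adjusted p = 0.174) with ATRA and -0.54 (-0.84 to -0.23, adjusted p = 0.0136) with the combination. TYMS shares 39.9% of its exonic bases with ENOSF1, on the opposite strand, which was listed at 4 to 5 RPKM in every library, and the strand setting of the counting is known only as the default.

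DUT, the dUTPase, had 45, 45 and 43 RPKM untreated, 43, 39 and 35 with ATRA, 42, 36 and 33 with palbociclib, and 41, 35 and 33 with the combination. Palbociclib and combination libraries lay below all untreated ones, and 1 ATRA library tied with the lowest untreated. The log2 fold changes were smaller than for TYMS, at -0.27 (95% interval -0.50 to -0.03, adjusted p = 0.223) with palbociclib, -0.19 (-0.43 to 0.05, adjusted p = 0.254) with ATRA and -0.29 (-0.53 to -0.06, adjusted p = 0.0625) with the combination. DUT per TYMS in RPKM was 0.514 ± 0.00962 untreated, 0.550 ± 0.0135 with ATRA, 0.629 ± 0.0301 with palbociclib and 0.609 ± 0.0352 with the combination. DUT shares 14.5% of its exonic bases with the antisense gene DUT-AS1.

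DTYMK, the kinase after TYMS, had intervals that spanned 0 against untreated in all 3 treated groups. It was at 32, 31 and 34 RPKM untreated, 34, 29 and 27 with ATRA, 35, 28 and 27 with palbociclib, and 33, 27 and 25 with the combination, all groups overlapping. The log2 fold change with palbociclib was -0.12 (95% interval -0.40 to 0.16, adjusted p = 0.719), an interval that includes the -0.27 of DUT.

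The salvage kinases differed from each other. TK1, the S-phase thymidine kinase, was at 31, 40 and 37 RPKM untreated, 36, 39 and 35 with ATRA, 26, 30 and 25 with palbociclib, and 32, 35 and 29 with the combination. Only palbociclib alone lay wholly below untreated. The log2 fold change was -0.41 (95% interval -0.65 to -0.17, adjusted p = 0.061) with palbociclib, 0.03 (-0.20 to 0.27, adjusted p = 0.865) with ATRA and -0.17 (adjusted p = 0.275) with the combination.

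DCK, the kinase for deoxycytidine and the purine deoxynucleosides that also activates cytarabine, was lower to a like extent in all 3 treated groups. It was at 19, 21 and 18 RPKM untreated, 14, 16 and 15 with ATRA, 13, 16 and 15 with palbociclib, and 14 in each combination library, with no overlap between treated and untreated. The log2 fold changes were -0.36 (95% interval -0.55 to -0.17, adjusted p = 0.0124) with ATRA, -0.40 (-0.59 to -0.21, adjusted p = 0.0299) with palbociclib and -0.46 (-0.65 to -0.27, adjusted p = 0.0023) with the combination. DCK shares 6.41% of its exonic bases with MOB1B on the same strand.

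CAD, at the head of pyrimidine synthesis, separated by ATRA. It was at 25, 27 and 26 RPKM untreated and 25, 27 and 30 with palbociclib, against 20, 21 and 24 with ATRA and 20, 21 and 23 with the combination. No library given ATRA reached any library without it, though the nearest values, 24 and 25, were only 1 rounding step apart. The log2 fold change against untreated was -0.27 (95% interval -0.46 to -0.07, adjusted p = 0.0565) with ATRA, -0.29 (-0.48 to -0.09, adjusted p = 0.0308) with the combination and 0.07 (-0.13 to 0.26, adjusted p = 0.76) with palbociclib.

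**Figure D2:**
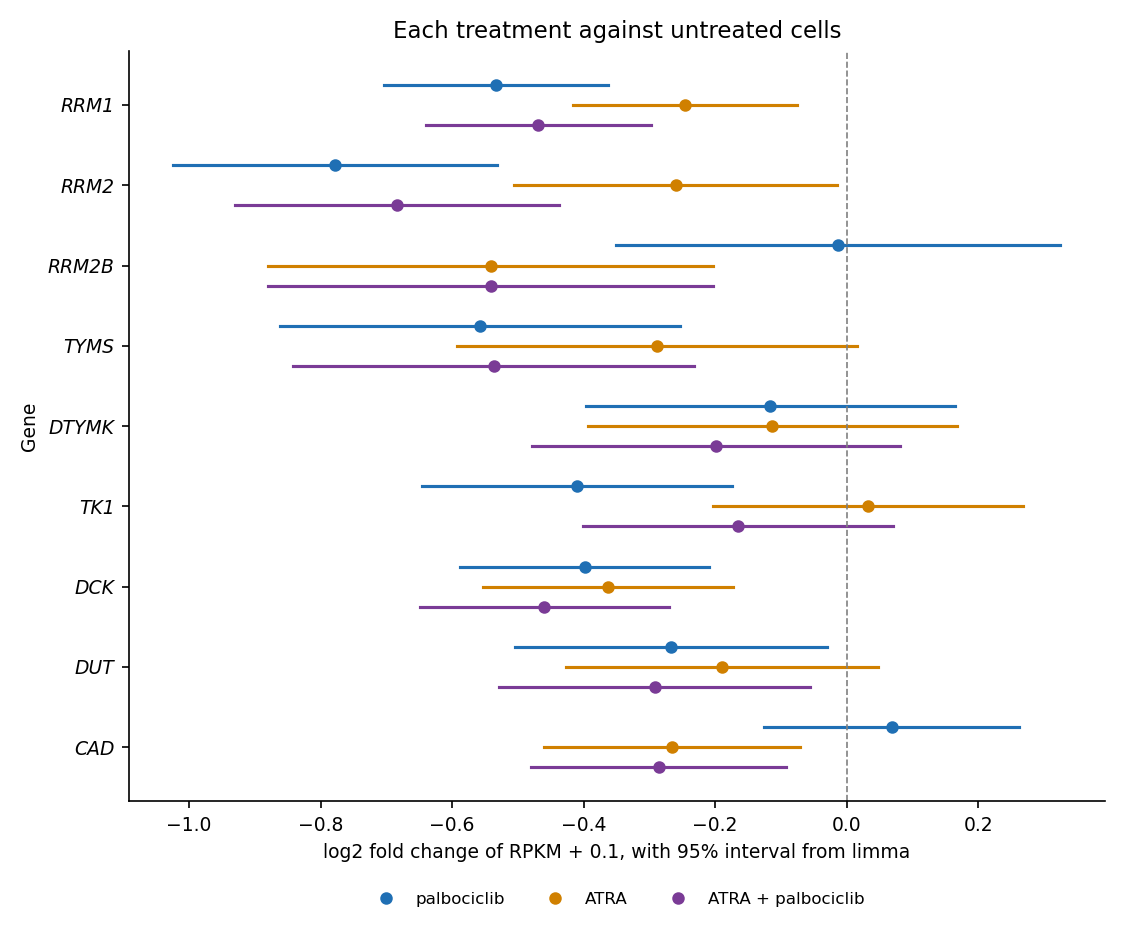
Difference from untreated cells for the 9 genes as log2 fold change of RPKM + 0.1, with 95% intervals from limma, for ATRA, palbociclib and the combination (3 libraries a group, the untreated ones shared). RRM2 has its largest distance from 0 with palbociclib, at -0.78, and CAD and RRM2B lie near 0 with palbociclib, at 0.07 and -0.01, and below 0 in the ATRA groups.

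Palbociclib was compared with untreated cells after 3 h, and whether any gene depends on the G1 kinases was not tested. None of the 9 members was called by limma at an adjusted p under 0.001, where 0.499% of all 7820 tested genes were. At an adjusted p under 0.05, 3 of 9 were lower (RRM1, RRM2 and DCK), against 3.16% of tested genes in that direction, and 6 of 9 were lower at an unadjusted p under 0.05, against 10.1%. The 6 with no overlap between groups, RRM1, RRM2, TYMS, TK1, DCK and DUT, compare with 9.48% of tested genes that lay wholly lower. The median log2 fold change of the 9 was -0.40, and that of all tested genes 0.00.

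ATRA alone also called none of the 9 members, where 4.72% of all tested genes were called. At an adjusted p under 0.05, 3 of 9 were lower (DCK, RRM2B and RRM1), against 11.6% of tested genes, and 5 of 9 were at an unadjusted p under 0.05, against 19.0%. The 6 that lay wholly lower, RRM1, RRM2, RRM2B, TYMS, DCK and CAD, compare with 17.3%, and the median log2 fold change was -0.26. With the combination none was called, where 8.04% of tested genes were, 6 of 9 were lower at an adjusted p under 0.05 (RRM2, RRM1, DCK, TYMS, RRM2B and CAD), against 17.7%, and 7 of 9 at an unadjusted p under 0.05, against 22.8%. The 7 that lay wholly lower, these 6 and DUT, compare with 20.6%, and the median was -0.46. The 3 comparisons share the untreated libraries, so their likeness is not independent.

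Among the treated groups the replicate numbers went together, since libraries with the same number deviated in the same way from their group means, so values with that number as a block are given where they end or make a call. RRM1, RRM2, TYMS and DCK lay wholly below untreated cells with palbociclib and with ATRA. Of the single drugs, TK1 and DUT did so only with palbociclib, and CAD and RRM2B only with ATRA. With palbociclib RRM2, TK1 and RRM1 were lower than with ATRA, at log2 differences of -0.52 (95% interval -0.76 to -0.27, adjusted p = 0.0117), -0.44 (-0.68 to -0.21, adjusted p = 0.0211) and -0.29 (-0.46 to -0.12, adjusted p = 0.0347), and CAD and RRM2B were higher, at 0.33 (0.14 to 0.53, adjusted p = 0.0315) and 0.53 (0.19 to 0.87, adjusted p = 0.0487). No member was called at 0.001 in this fit, against 2.69% of tested genes. The 3 lower members compare with 6.46% of tested genes lower at an adjusted p under 0.05 and the 2 higher with 5.32%, and the same members were the ones at an unadjusted p under 0.05, against 10.7% lower and 11.7% higher. With the block in all 12 libraries RRM2 and RRM1 were called (adjusted p = 0.000322 and 0.000575), against 3.72% of tested genes lower, and with the block in the 9 treated libraries, a fit chosen after seeing the data, TK1 and CAD were (adjusted p = 0.000785 and 0.00046), against 2.89% lower and 1.5% higher. No member was called in both, since RRM2 and RRM1 had an adjusted p of 0.00267 and 0.00146 with the block in the 9 libraries, and TK1 and CAD of 0.00207 and 0.00191 with the block in all 12.

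Adding palbociclib to ATRA was compared with ATRA alone. The log2 difference of RRM2 was -0.42 (95% interval -0.67 to -0.18, adjusted p = 0.365), with values within replicate numbers of -0.33, -0.41 and -0.52. RRM1 was at -0.22 (-0.39 to -0.05, adjusted p = 0.859), TYMS at -0.25 (-0.55 to 0.06, adjusted p = 1) and TK1 at -0.20 (-0.43 to 0.04, adjusted p = 1). CAD and RRM2B were at -0.02 (-0.21 to 0.17) and 0.00 (-0.34 to 0.34). None of the 9 members was called and neither was any tested gene (0.0%), and 2 members, RRM2 and RRM1, were lower at an unadjusted p under 0.05, against 3.11% of tested genes. With the block the adjusted p of RRM2 was 0.02 and that of RRM1 0.0359, where 0.639% of tested genes were lower at an adjusted p under 0.05.

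Adding ATRA to palbociclib gave intervals that excluded 0 for CAD, RRM2B and TK1. CAD was lower in the combination than with palbociclib alone, at -0.35 (95% interval -0.55 to -0.16, adjusted p = 0.0221), and was called with the block in the treated libraries (adjusted p = 0.000351), against 2.12% of tested genes lower, but not with the block in all 12 (adjusted p = 0.00131). RRM2B was at -0.53 (-0.87 to -0.19, adjusted p = 0.0472) and TK1 at 0.24 (0.01 to 0.48, adjusted p = 0.192), with TK1 higher within all 3 replicate numbers. RRM2, at 0.09 (-0.15 to 0.34), RRM1, at 0.06, and TYMS, at 0.02, had little distance between the groups. In the main fit none of 9 members was called, where 3.11% of tested genes were, 2 were lower at an adjusted p under 0.05, against 6.64%, and also at an unadjusted p under 0.05, against 13.5%, and TK1 was the 1 member higher at an unadjusted p under 0.05, against 10.3%.

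**Figure D3:**
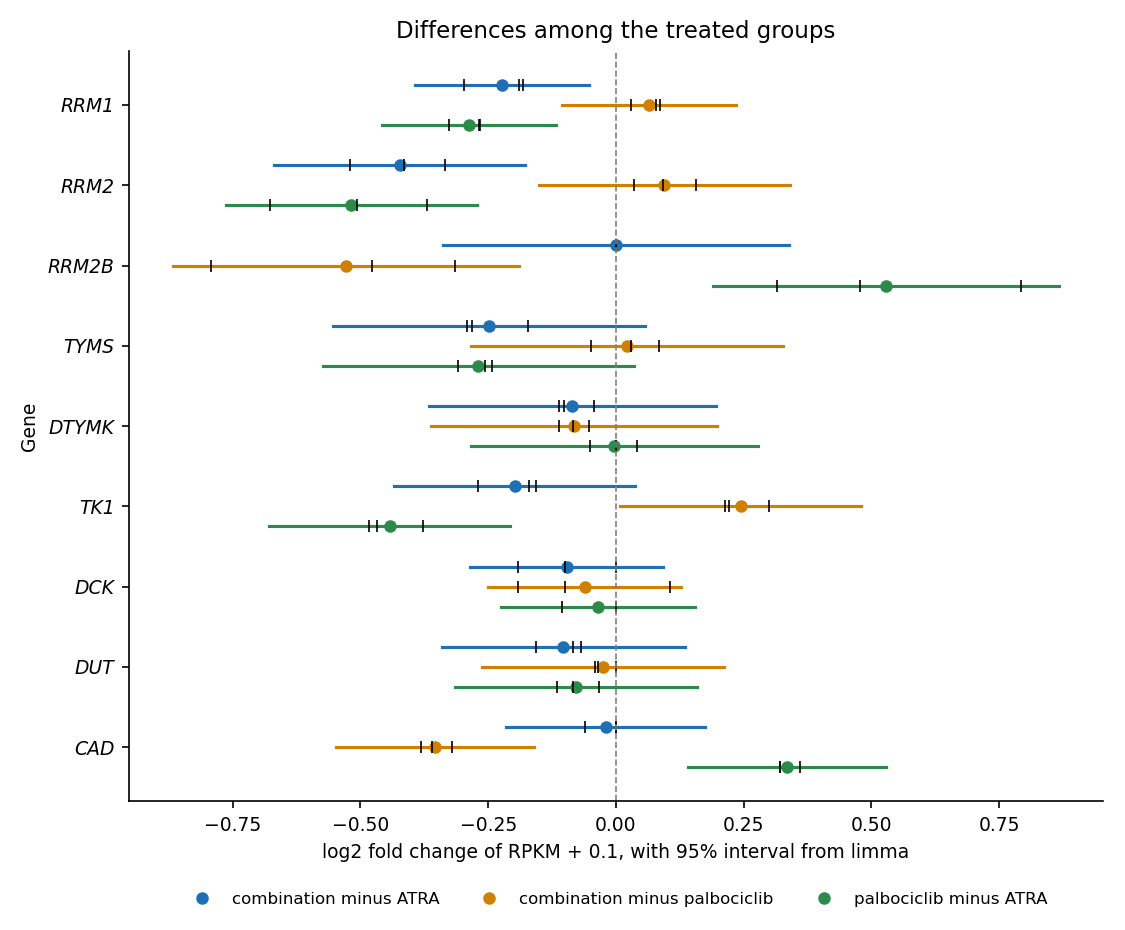
Differences among the 3 treated groups for the 9 genes as log2 fold change of RPKM + 0.1, with 95% intervals from limma without the block; short black ticks are the differences within replicate numbers 1 to 3. CAD and RRM2B lie above 0 for palbociclib minus ATRA, at 0.33 and 0.53, and below 0 for combination minus palbociclib, while RRM2 lies below 0 for both differences from ATRA, at -0.52 and -0.42.

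Whether the drugs added up was tested as the departure from additivity, the log2 effect of palbociclib in the presence of ATRA minus its effect in the absence of ATRA. It lay above 0 for 8 of 9 members, with CAD at -0.09 as the exception. Of all tested genes, 50.4% lay below 0, values of nearly 0 included. RRM2B and DTYMK were close to 0, at 0.01 and 0.03. The median of the 9 was 0.21, and that of all tested genes 0.00. For these 8 the difference with palbociclib was less negative in the presence of ATRA, though not past the threshold. DTYMK and RRM2B changed sign in other fits, which ran from -0.08 to 0.15 and from -0.15 to 0.12. RRM2 had a departure of 0.35 (95% interval 0.01 to 0.70, unadjusted p = 0.0464), RRM1 of 0.31 (0.07 to 0.55, unadjusted p = 0.0164), DCK of 0.30 (0.03 to 0.57, unadjusted p = 0.0308) and TYMS of 0.31 (-0.12 to 0.74, unadjusted p = 0.142). All had an adjusted p of 1 by limma, no tested gene was called (0.0%), and the 3 members at an unadjusted p under 0.05 compare with 1.97% of tested genes in that direction.

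Across the 12 libraries the members fell into patterns, given here as descriptions since the points share treatment groups and replicate numbers. RRM1 and RRM2 had a Pearson correlation of log2 RPKM of 0.985, TYMS and DUT of 0.961, and DTYMK and DUT of 0.887. RRM2B and CAD correlated at 0.788, and RRM2 and CAD at -0.036. Among 4661 tested genes with a mean of at least 10 RPKM, the patterns most like RRM2 were those of EXO1, BLM and CDT1 (0.967, 0.966 and 0.966), those most like TYMS were CDC45, NASP and LRR1 (0.979, 0.978 and 0.972), and those most like CAD were ESYT1, PDCD11 and RXRA (0.980, 0.968 and 0.966).

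Of 52 further genes of nucleotide metabolism, in lists for one-carbon and folate, pyrimidine, purine, and salvage and pool control, 42 could be tested. Palbociclib called none of the 42 in limma, beside 0.499% of all tested genes, with 5 lower and 0 higher at an adjusted p under 0.05, beside 3.16% and 0.908%. ATRA called 3 lower and 0 higher, beside 1.94% and 2.77%, with 12 lower and 2 higher at 0.05, beside 11.6% and 8.71%. The combination called 6 lower and 1 higher, beside 4.28% and 3.76%, with 20 lower and 2 higher at 0.05, beside 17.7% and 12.7%. Median log2 fold changes with the combination were -0.25 for folate, -0.34 for pyrimidine, -0.30 for purine and 0.02 for salvage and pool control genes, beside -0.01 for all tested genes. With the combination 5 of 15 purine genes and none of the 8 folate or 7 pyrimidine genes tested were called lower at 0.001, and at 0.05 the counts were 8 of 15, 5 of 8 and 4 of 7. The difference between the lists was not tested.

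The 5 purine genes called lower at 0.001 with the combination were PPAT, PRPS2, GMPS, ADSS and PAICS. PPAT, which catalyses the committed step of purine synthesis, had 19.7 ± 0.577 RPKM untreated, 10.3 ± 0.577 with ATRA, 15.0 ± 1.73 with palbociclib and 9 in each combination library (SD, n = 3). Its log2 fold change was -0.92 with ATRA (adjusted p = 2.42e-05) and -1.12 with the combination (adjusted p = 4.72e-06), and it was -0.72 between the combination and palbociclib (adjusted p = 0.000171). In the combination PRPS2, which makes the ribose phosphate donor, fell at -0.77 (adjusted p = 0.000185), GMPS, which makes GMP, at -0.75 (adjusted p = 9.87e-05), ADSS, on the way to AMP, at -0.61 (adjusted p = 4.6e-05) and PAICS at -0.43 (adjusted p = 0.000847). ADSS was also called lower with ATRA, at -0.55 (adjusted p = 0.000143). PRPS2, GMPS and PAICS were lower with ATRA without a call, at -0.57, -0.45 and -0.33 (adjusted p = 0.00203, 0.00374 and 0.00678). The PAICS call was lost without any single library but ATRA replicate 3 (adjusted p up to 0.00445), the PRPS2 call without untreated replicates 1 or 2 or combination replicate 2 (up to 0.0016), and the ADSS call with ATRA without untreated replicate 3 or ATRA replicates 2 or 3 (up to 0.00131). The PPAT call against palbociclib was lost without replicates 2 or 3 of palbociclib or the combination (up to 0.00133) and with the block in the 9 treated libraries (adjusted p = 0.00195). With only the libraries compared in the fit, of all calls in these lists just those of PPAT against untreated cells held.

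Of the 12 genes tested for salvage and pool control, PNP and SAMHD1 were called. PNP, the purine nucleoside phosphorylase, had 36.7 ± 2.08 RPKM untreated, 24.0 ± 2.0 with ATRA, 34.3 ± 2.08 with palbociclib and 23.3 ± 1.15 with the combination, a log2 fold change of -0.61 with ATRA (adjusted p = 0.000271) and -0.65 with the combination (adjusted p = 0.000115), and the combination stood at -0.55 against palbociclib (adjusted p = 0.000664). The call with ATRA was lost without any untreated library or ATRA replicates 2 or 3 (adjusted p up to 0.00188), and that against palbociclib without any library but ATRA replicates 1 and 2 (up to 0.00503). SAMHD1, the hydrolase that breaks down deoxynucleoside triphosphates, was the gene that rose. It was at 54, 52 and 56 RPKM untreated, 83, 115 and 123 with ATRA, 51, 57 and 62 with palbociclib, and 87, 123 and 125 with the combination, so that all libraries given ATRA stood above all others. Its log2 fold change was 1.03 with the combination (SE 0.16, adjusted p = 0.000872) and 0.97 with ATRA (adjusted p = 0.00198), and the combination call was lost without any single library but replicate 1 of ATRA or of the combination, with an adjusted p of up to 0.00569.

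**Figure D4:**
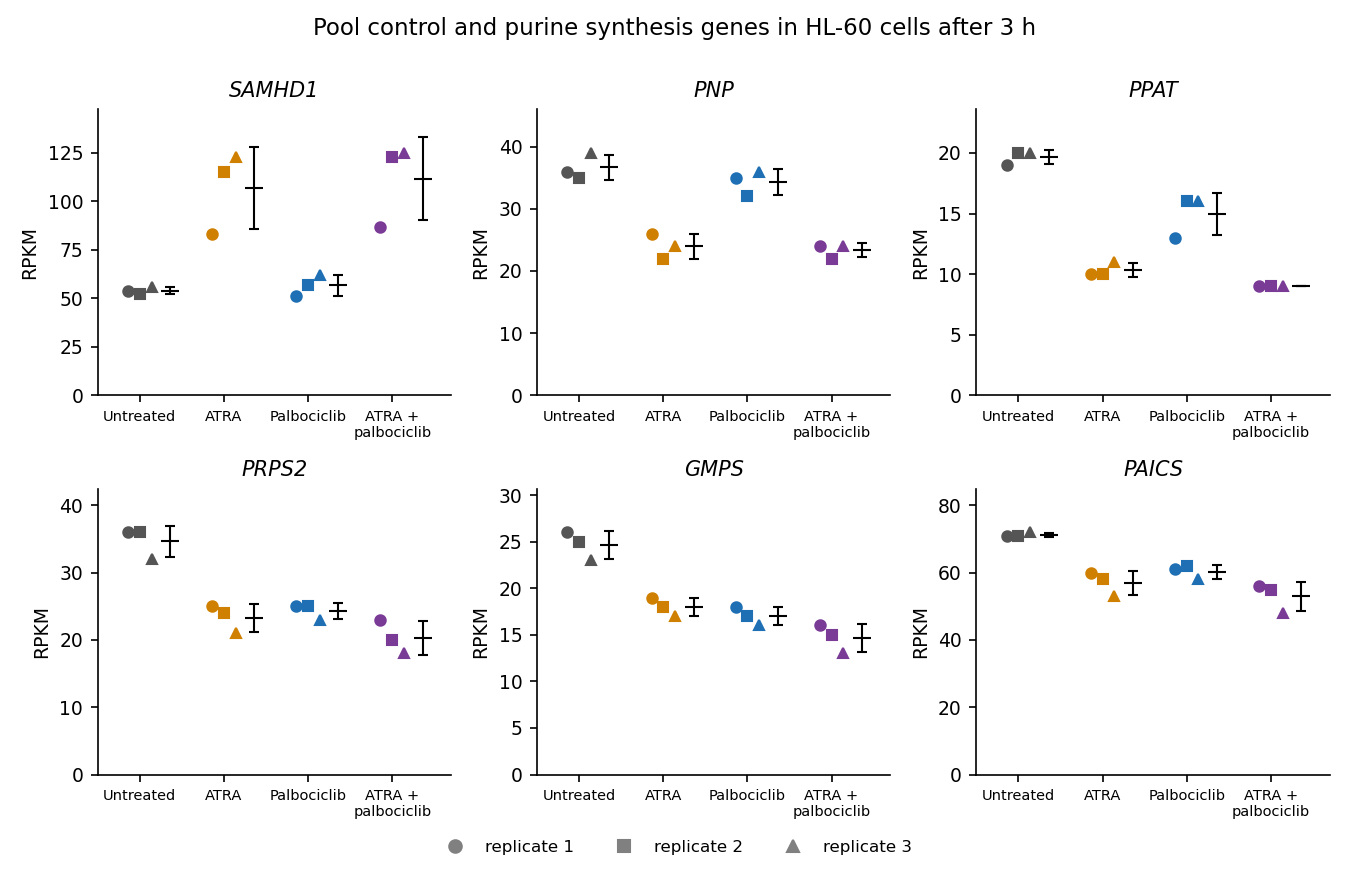
RPKM of genes of the surrounding pathways in each of the 12 libraries by treatment, with marker shape for the replicate number and a bar for the group mean; each vertical axis starts at 0. SAMHD1 ran from 83 to 125 in the 6 libraries given ATRA and from 51 to 62 in the 6 others, and PPAT had means of 10.3 and 9 RPKM in the ATRA groups against 19.7 untreated.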

How the data were processed

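Libraries were made by the authors from polyA RNA with the TruSeq kit and sequenced on an Illumina HiSeq, mapped with HISAT2 to hg38 and counted with htseq-count at default settings. The deposited score for each gene and library is RPKM rounded to whole numbers by the authors. Counts were not used here, and the precision that depth gives a value is unknown. Replicates were not pooled.

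Genes with at least 5 RPKM in at least 3 of the 12 libraries (7820 of 58233) were tested with limma 3.58.1 in R 4.3.3 on log2(RPKM + 0.1), which understates changes of low genes. The model had 1 mean per group, a variance trend and 7 contrasts, with Benjamini-Hochberg adjustment over all tested genes in each and a threshold of 0.001. The study tested counts with voom. All comparisons were two-sided, and the code was tested on simulated data. Other filters, pseudocounts, scalings and fits, and leaving out each library, were tried. All 9 members were named. List genes were named where called, at most 6 a list and comparison, with the 3 most correlated genes for RRM2, TYMS and CAD. A further gene that the naming rule holds is not reported here. The members and lists were chosen with earlier results of these data known.

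Pairing by replicate number was checked by correlating deviations from group means. Libraries of the same number correlated at 0.438 to 0.908 between treated groups, and at 0.0453 to 0.367 between untreated and treated ones. Whether a number marks an independent experiment is not stated for these libraries in the sources used here. Overlaps of exons were taken from GENCODE 44, and 13 pseudogenes of RRM2, DUT and TYMS were listed at 0 to 2 RPKM. No libraries were duplicates.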

Additional observations from a re-analysis of the deposited data

How the results depend on the processing

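Among the comparisons with untreated cells, the replicate block brought 2 members past the threshold of 0.001 for palbociclib, 1 for ATRA and 4 for the combination, against 0.997%, 4.42% and 8.82% of tested genes lower, where the fit without it had 0 in each (adjusted p = 9.08e-05 for RRM1 and 0.00013 for RRM2 with palbociclib). The 4 with the combination were RRM1, RRM2, TYMS and DCK (limma adjusted p = 1.86e-05, 3.36e-05, 0.000299 and 0.00053 with the block). Replicate numbers pair the treated libraries with each other but not clearly with the untreated ones, so these calls against untreated cells are given only here. For the combination, 2 members passed with a filter at 10 RPKM and 1 with a pseudocount of 1, and 0 to 1 when single libraries were left out, the 1 being RRM2 without palbociclib replicate 3. Of all tested genes, 9.78% passed with that filter and 8.22% with that pseudocount. At an adjusted p under 0.05 the counts were 3 for palbociclib, 3 for ATRA and 6 for the combination, then 2 for combination minus palbociclib and 5 for palbociclib minus ATRA. Chosen after seeing the data, the block at 0.05 gave 6, 7, 7, 2, 3 and 6 for palbociclib, ATRA, the combination, combination minus ATRA, combination minus palbociclib and palbociclib minus ATRA. The block at 0.001 gave 2 for palbociclib minus ATRA. The block in the 9 treated libraries gave 1 for combination minus palbociclib and 2 for palbociclib minus ATRA at 0.001, and 3 (combination minus ATRA), 4 and 7 at 0.05. The block changed no other call of a member. Of 1550 alternative values for single members, 1431 kept side and direction, 80 crossed the threshold towards a call and 39 changed sign, the sign changes being of log2 differences near 0. Median centring gave 0.018 for CAD, combination vs ATRA, 0.00281 for DCK, palbociclib vs ATRA, 0.035 for DTYMK, palbociclib vs ATRA, -0.0073 for DTYMK, departure from additivity, 0.063 for RRM2B, palbociclib vs untreated, and -0.025 for RRM2B, departure from additivity, and quantile scaling gave 0.00969 for DTYMK, palbociclib vs ATRA. Leaving out single libraries gave these log2 ranges where the sign changed: -0.0757 to 0.0552 for CAD, combination vs ATRA, -0.000353 to 0.13 for CAD, palbociclib vs untreated, -0.15 to 0.00364 for DCK, combination vs palbociclib, -0.10 to 0.0484 for DCK, palbociclib vs ATRA, -0.20 to 0.00795 for DTYMK, combination vs ATRA, -0.20 to 0.0332 for DTYMK, combination vs palbociclib, -0.0837 to 0.15 for DTYMK, departure from additivity, -0.12 to 0.0905 for DTYMK, palbociclib vs ATRA, -0.12 to 0.0697 for DUT, combination vs palbociclib, -0.17 to 0.000800 for DUT, palbociclib vs ATRA, -0.00379 to 0.18 for RRM2, combination vs palbociclib, -0.15 to 0.12 for RRM2B, departure from additivity, -0.0927 to 0.15 for RRM2B, palbociclib vs untreated, -0.0706 to 0.11 for TK1, ATRA vs untreated, -0.11 to 0.13 for TYMS, combination vs palbociclib. For called genes of the surrounding lists, 71 of 292 alternative values lost the call with the direction kept. Over all genes, the calls higher and lower at 0.001 were 1 and 38 for palbociclib, 217 and 152 for ATRA, 294 and 335 for the combination and 61 and 149 for palbociclib minus ATRA, and with the block 5 and 78, 376 and 346, 514 and 690, and 154 and 291. Median centring, which moved the median of all genes by at most 0.08, turned the split to 0 and 13, 252 and 92, 346 and 172, and 71 and 154, and fits of only the libraries compared called 3 and 1, 54 and 24, 49 and 22, and 2 and 14. For combination minus palbociclib the main split of 165 and 78 became 280 and 201 with the block and 20 and 1 with only the libraries compared. A filter at 1 RPKM called 29 and 86 for palbociclib and 118 and 199 for palbociclib minus ATRA. Leaving out single libraries gave 0 to 29 calls for palbociclib, 171 to 342 for ATRA, 338 to 593 for the combination, 115 to 240 for combination minus palbociclib and 99 to 204 for palbociclib minus ATRA. The cause was not tested. Rounding to whole RPKM limits low genes such as RRM2B most.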
